A study of Arabidopsis thaliana with 21 samples.

Results

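Versions of 1 reporter were compared in cells sorted from Arabidopsis thaliana roots, one with and one without a destruction box under the same promoter. The 6 libraries are PEAR1-DBOX 3 and PEAR1-DBOX 5, of the line pPEAR1::DBOX-3xYFP (n = 2), and PEAR1 1 to PEAR1 4, of the line pPEAR1::3xYFP (n = 4). They were taken by line and title from a series of 21 libraries of 6 reporter lines, and numbers after a line name are the replicate numbers in the titles. All 6 came from roots of seedlings at 5 days, digested to protoplasts (cells without walls) and sorted by fluorescence, and all carry yellow fluorescent protein (YFP) driven by the PEAR1 promoter. PEAR1 is a DOF transcription factor of early protophloem, so both reporters mark the cells in which that promoter is active. The labels name no further mutation, no ecotype and no gate settings, and each reporter is given as a single line. The measure is the read count per gene, compared here over the nuclear genes.

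A destruction box is a short motif that the anaphase-promoting complex (APC/C), a ubiquitin ligase, recognises in proteins such as the B-type cyclins, so that they are degraded as mitosis ends. A fluorescent protein that carries it is removed at the end of each division and builds up again in cells that go on cycling. Protophloem is the first phloem of the root: its cell files divide in the meristem, stop dividing, and differentiate into sieve elements, which lose their nuclei and conduct sugar. The comparison therefore sets the sorted cells of a reporter tied to the cell cycle beside those of a reporter that persists under the same promoter.

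Library totals were 36163248 and 29839934 counts in PEAR1-DBOX 3 and 5, and 26138629 to 31292379 in the 4 PEAR1 libraries. The 2 PEAR1-DBOX libraries stood apart from each other: they had counts on 22582 and 28156 nuclear genes, against 29277 to 30449 in PEAR1. On the second principal component of all 21 libraries PEAR1-DBOX 3 scored -77.5, within the range of the CVP2-DBOX line (-103.3 to -38.0), which has a destruction box reporter under another protophloem promoter. PEAR1-DBOX 5 scored 77.7 on that axis, next to PEAR1 (96.2 to 136.0). Values are therefore given for each library, and calls against PEAR1 are given also without PEAR1-DBOX 3 where it ends them. Nothing in the labels says that replicates came from separate plantings, so the spread between libraries of a line may be technical. The p-values rest on that spread, estimated over all 21 libraries and not over the 2 compared lines alone. Plant line, day of sorting and gate cannot be told apart from the destruction box.

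The PEAR1 gene itself (AT2G37590) had 279 and 268 CPM in PEAR1-DBOX 3 and 5, against 272, 196, 179 and 212 CPM in PEAR1 1 to 4. CPM is the count of a gene relative to the size of its library, with libraries scaled by the TMM factors of edgeR. The groups overlapped, and the log2 difference was 0.35 ± 0.18 (SE; adjusted p = 0.345). The 20 genes of the early protophloem list, which holds transcription factors, receptors and polarity proteins of developing phloem, summed to 3439 and 2499.6 CPM in PEAR1-DBOX, against 3249 to 3826.1 CPM in PEAR1. The 5 root cap markers summed to 24.5 and 44.4 CPM in PEAR1-DBOX, against 22.1 to 79.9 CPM in PEAR1, and the 11 endodermis markers to 2.84 and 10.5 CPM, against 11.3 to 66.0 CPM. No early protophloem gene was without a count in any of the 6 libraries. PEAR1-DBOX 5 was below all PEAR1 libraries in the early protophloem sum, both PEAR1-DBOX libraries were below them in the endodermis sum, and the root cap sums overlapped. In bulk RNA of sorted cells fewer cells of a type and less RNA per cell cannot be told apart.

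Of 25924 nuclear genes tested, 365 were higher in PEAR1-DBOX than in PEAR1 (1.41%) and 230 were lower (0.887%), by edgeR's quasi-likelihood test at a Benjamini-Hochberg adjusted p below 0.05. Genes said to have risen, fallen, changed or passed did so in this test with all libraries, unless another tool is named. Among the genes that rose were B-type cyclins, their kinases, Aurora kinases, spindle checkpoint proteins and proteins of the cell division plate. Over 5 lists of mitotic genes (B-type cyclins, cyclin-dependent kinases, APC/C, mitotic kinases with the checkpoint, and spindle with cytokinesis), 23 of 93 members rose and none fell. With median-of-ratios factors in place of TMM 18 rose and none fell, beside 0.795% higher and 0.937% lower of all nuclear genes. With DESeq2 31 rose and 3 fell, beside 2.78% and 4.46%, and with limma voom 52 rose and none fell, beside 4.4% and 1.47%. With edgeR on only the 2 lines 51 rose and none fell, beside 1329 higher and 1073 lower of 24413 nuclear genes. The median log2 difference of the 93 was 1.41, against -0.09 for all nuclear genes tested. In 65 of the 93 both PEAR1-DBOX libraries lay above all 4 PEAR1 libraries, as did 19.5% of all nuclear genes. Without PEAR1-DBOX 3, 3 of the 23 passed the test (CYCB1;3, AUR1 and AUR2) and the median was 0.77. Without PEAR1 2, 3 or 4 the count was 12, 11 or 12, and with PEAR1 1 and 3 only it was 5. Of all nuclear genes, 23 were higher (0.084%) and 7 lower (0.0256%) in the fit without PEAR1-DBOX 3.

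**Figure D1:**
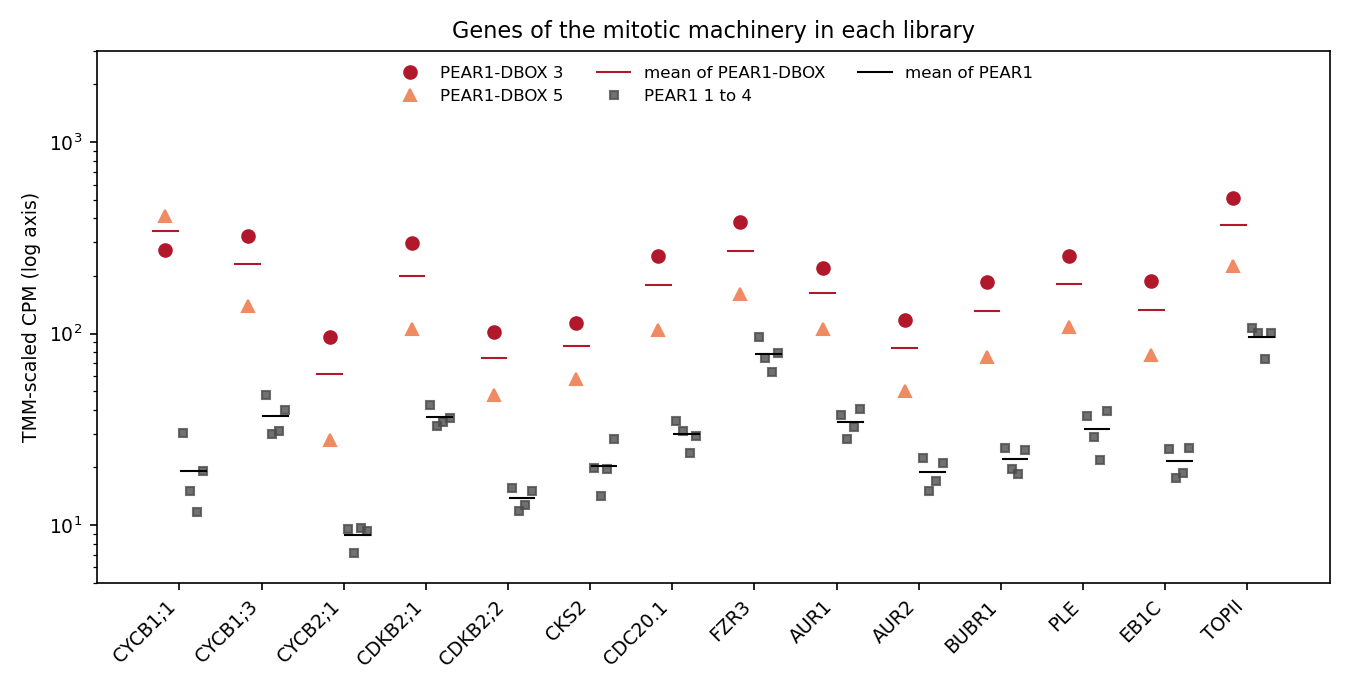
TMM-scaled CPM (log axis) of 14 mitotic genes in each library, with PEAR1-DBOX 3 (circles) and PEAR1-DBOX 5 (triangles) left of PEAR1 1 to 4 (squares), and a line at the mean of each line of plants. Both PEAR1-DBOX libraries lie above all 4 PEAR1 libraries for each gene shown, and PEAR1-DBOX 3 is the higher of the 2 for each except CYCB1;1.

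B-type cyclins, which activate the kinases that drive entry into mitosis and carry a destruction box themselves, were the list with the highest median. Of its 10 members tested 4 rose, and the median log2 difference was 2.75, or 1.81 without PEAR1-DBOX 3. CYCB1;3 (AT3G11520) had 323 and 139 CPM in PEAR1-DBOX 3 and 5, against 48.0, 29.7, 31.0 and 40.0 CPM in PEAR1 1 to 4. It rose 6.21-fold (log2 2.63 ± 0.31, SE; adjusted p = 4.19e-04), and it kept the call whichever of the 6 libraries was left out, at 1.91 without PEAR1-DBOX 3. CYCB2;1 had 95.6 and 27.8 CPM, against 9.48, 7.10, 9.64 and 9.25 CPM, and CYCB2;3 had 130 and 49.7 CPM, against 22.8, 15.4, 15.8 and 15.7 CPM. The groups did not overlap for either gene, and PEAR1-DBOX 5 lay between PEAR1-DBOX 3 and the PEAR1 libraries. Their log2 differences of 2.80 ± 0.40 (adjusted p = 0.00178) and 2.37 ± 0.57 (adjusted p = 0.0377) were 1.65 and 1.51 without PEAR1-DBOX 3, and neither then passed. CYCB2;3 also lost its call without any 1 of the 4 PEAR1 libraries.

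CYCB1;1 (AT4G37490) showed another order of the libraries. It had 272 and 411 CPM in PEAR1-DBOX 3 and 5, against 30.4, 15.0, 11.7 and 19.2 CPM in PEAR1 1 to 4, so that PEAR1-DBOX 5 was the higher of the 2. It rose 17.9-fold (log2 4.16 ± 1.04; adjusted p = 0.0423), the largest rise among the genes named by size, and lost the call without any 1 of the 6 libraries, with log2 values from 3.83 to 4.48. The labels do not say from which gene the destruction box was taken. Reads from a construct that holds part of a gene would be counted on that gene, and their part in this value was not tested.

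The other B-type cyclins did not pass edgeR's test with all lines fitted, although limma voom called 9 of the 10 higher and DESeq2 6. DESeq2 gave no adjusted p for CYCB1;4. With only the 2 lines fitted, edgeR called 9 of the 10 higher. CYCB1;2 had 614 and 237 CPM, against 69.3, 60.3, 51.4 and 71.5 CPM (log2 2.75 ± 1.18; adjusted p = 0.256), and CYCB1;4 had 711 and 250 CPM, against 84.7, 59.5, 57.0 and 85.0 CPM (log2 2.75 ± 1.17; adjusted p = 0.251). For these and for CYCB2;2, CYCB2;4 and CYCB3;1 both PEAR1-DBOX libraries also lay above every PEAR1 library, with log2 differences of 2.76, 2.79 and 1.80. CYCB1;5, at 0.954 and 1.17 CPM in PEAR1-DBOX and 1.01 to 2.34 CPM in PEAR1, was the member whose groups overlapped. The 10 members summed to 2714.6 and 1341.4 CPM in PEAR1-DBOX, against 356, 256, 236 and 313 CPM in PEAR1.

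Of 7 cyclin-dependent kinases and their small CKS subunits tested 3 rose, with a median log2 difference of 1.82, or 1.47 without PEAR1-DBOX 3. limma voom called 5 higher and DESeq2 3. The B2-type kinases, which plants express around mitosis, both rose. CDKB2;1 had 297 and 105 CPM in PEAR1-DBOX 3 and 5, against 42.6, 32.8, 34.4 and 36.1 CPM in PEAR1 1 to 4 (log2 2.46 ± 0.62; adjusted p = 0.0432). CDKB2;2 had 102 and 47.9 CPM, against 15.6, 11.9, 12.7 and 15.0 CPM (log2 2.45 ± 0.40; adjusted p = 0.00389). CKS2, a subunit that binds these kinases, rose to 114 and 57.9 CPM, against 19.8, 14.2, 19.5 and 28.0 CPM (log2 2.07 ± 0.28; adjusted p = 7.47e-04). CDKA;1, the kinase present through the whole cycle, stood at 58.6 and 58.2 CPM, against 50.6, 48.3, 54.8 and 52.6 CPM (log2 0.18 ± 0.29; adjusted p = 0.808). Without PEAR1-DBOX 3 the log2 values of CDKB2;1, CDKB2;2 and CKS2 were 1.52, 1.80 and 1.51, and none passed. CDKB2;1 lost the call also without any 1 of the PEAR1 libraries. CKS2 and its neighbour CKS1, at 106 and 62.0 CPM in PEAR1-DBOX and 29.5 to 53.0 CPM in PEAR1 (adjusted p = 0.104), are similar copies whose reads may be shared.

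The core of the mitosis-specific activator element is the sequence AACGG, which MYB3R transcription factors bind in promoters of genes of G2 and M phase. It was searched on both strands in the 250 bases before each annotated start, and no other motif was searched. It was present in 39 of 93 promoters of the 5 mitotic lists (41.9%) and in 14 of the 23 that rose (60.9%). The share was 31.9% of 357 promoters of all genes that rose, 16.7% of 227 of genes that fell, and 21.1% of 23234 promoters of tested protein-coding genes. These are shares with no test, and a match is not evidence of binding. The promoters of 4 genes that rose, picked from the 14 with a match, follow. They are given 5′ to 3′ on the strand of the gene, from the RefSeq sequence and annotation of TAIR10.1. AACGG or its reverse complement CCGTT is in capitals.
CYCB1;3 (chr3:3627274-3627523, minus strand): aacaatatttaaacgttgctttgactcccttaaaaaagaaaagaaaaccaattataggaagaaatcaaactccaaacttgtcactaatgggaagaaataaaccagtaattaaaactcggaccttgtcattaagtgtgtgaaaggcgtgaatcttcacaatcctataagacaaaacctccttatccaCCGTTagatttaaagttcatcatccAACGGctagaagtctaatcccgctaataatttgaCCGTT
CYCB1;1 (chr4:17624309-17624558, minus strand): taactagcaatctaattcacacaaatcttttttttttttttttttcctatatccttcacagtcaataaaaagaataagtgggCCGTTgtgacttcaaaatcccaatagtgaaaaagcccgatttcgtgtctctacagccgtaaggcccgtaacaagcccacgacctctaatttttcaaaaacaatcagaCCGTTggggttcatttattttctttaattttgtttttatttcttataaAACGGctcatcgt
AUR1 (chr4:15842193-15842442, plus strand): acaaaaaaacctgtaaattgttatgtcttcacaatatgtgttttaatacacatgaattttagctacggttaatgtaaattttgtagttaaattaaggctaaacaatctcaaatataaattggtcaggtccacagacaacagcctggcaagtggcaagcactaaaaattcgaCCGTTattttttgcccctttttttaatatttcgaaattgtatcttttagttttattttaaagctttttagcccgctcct
PLE (chr5:20964538-20964787, minus strand): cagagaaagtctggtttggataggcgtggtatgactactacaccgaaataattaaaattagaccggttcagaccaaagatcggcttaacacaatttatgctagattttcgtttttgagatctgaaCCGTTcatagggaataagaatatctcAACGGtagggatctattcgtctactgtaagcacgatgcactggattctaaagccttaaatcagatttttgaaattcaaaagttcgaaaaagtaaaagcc
CYCB1;3 and CYCB1;1 each held 3 matches, PLE 2 and AUR1 1. The window of 9 of the 23 held none, among them CDKB2;1, CKS2, CDC20.1, BUBR1 and EB1C.

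Among the MYB3R genes, MYB3R-3, which in Arabidopsis acts mainly as a repressor of these targets, rose to 26.4 and 20.7 CPM in PEAR1-DBOX 3 and 5, against 12.9, 11.6, 8.50 and 12.0 CPM in PEAR1 1 to 4 (log2 1.07 ± 0.27; adjusted p = 0.0429). MYB3R-4, an activator, had 78.4 and 38.8 CPM, against 22.3, 17.0, 15.8 and 16.8 CPM, and did not pass edgeR's test (log2 1.71 ± 1.07; adjusted p = 0.468). limma voom called 5 of the 17 cell cycle transcription factors tested higher, MYB3R-4 among them, and DESeq2 2. Of the 17 the other that rose was 3xHMG-box1, a DNA-binding protein of mitotic chromosomes, with 69.6 and 31.3 CPM, against 18.4, 11.2, 13.7 and 13.0 CPM (log2 1.84 ± 0.41; adjusted p = 0.0252). Both calls ended without PEAR1-DBOX 3, at 0.88 and 1.16 on the log2 scale, and without any 1 of PEAR1 2, 3 and 4. The MYB3R-3 call ended also without PEAR1 1.

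The APC/C itself, which destroys destruction box proteins, had 3 of 19 members that rose, with a median log2 difference of 0.52, or 0.19 without PEAR1-DBOX 3. DESeq2 called 5 higher and 2 lower, and limma voom 5 higher. CDC20.1 (AT4G33270), its activator at the onset of anaphase, had 254 and 104 CPM in PEAR1-DBOX 3 and 5, against 35.0, 31.0, 23.9 and 29.3 CPM in PEAR1 1 to 4 (log2 2.59 ± 0.49; adjusted p = 0.00976). The adjacent and very similar copy CDC20.2 had 106 and 36.3 CPM, against 15.2, 10.4, 10.4 and 12.4 CPM (adjusted p = 0.0877, and 0.0299 with DESeq2), and reads shared by the 2 copies limit how far they are separated. FZR3, also called CCS52B, an activator expressed around mitosis, rose to 381 and 160 CPM, against 95.7, 74.9, 62.8 and 78.7 CPM (log2 1.79 ± 0.28; adjusted p = 0.00261). The core subunit HBT (CDC27B) had 87.0 and 51.5 CPM, against 43.2, 36.4, 29.5 and 38.1 CPM (log2 0.91 ± 0.22; adjusted p = 0.0360). Without PEAR1-DBOX 3 the log2 values of CDC20.1, FZR3 and HBT were 1.81, 1.03 and 0.49, and none passed. HBT lost the call also without any 1 of PEAR1 2, 3 and 4.

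FZR1 and FZR2, the CCS52A activators known from exit from the division cycle into endoreduplication, were lower in both PEAR1-DBOX libraries. FZR2 had 5.62 and 12.3 CPM in PEAR1-DBOX, against 17.7, 19.1, 15.4 and 19.5 CPM in PEAR1, and FZR1 had 3.68 and 8.65 CPM, against 13.9, 12.5, 11.7 and 16.4 CPM. The groups did not overlap for either, as for 21.8% of all nuclear genes in this direction. They did not pass edgeR's test (adjusted p = 0.0720 and 0.0730) and were the 2 members that DESeq2 called lower (adjusted p = 0.00843 and 0.00686).

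Of 25 genes of mitotic kinases, kinetochores and the spindle checkpoint, 6 rose. limma voom called 13 higher, and DESeq2 6 higher and 1 lower. The median log2 difference was 1.08, or 0.72 without PEAR1-DBOX 3. AUR1 (AT4G32830), an Aurora kinase of the spindle and the division plate, had 220 and 105 CPM in PEAR1-DBOX 3 and 5, against 37.7, 28.1, 32.5 and 40.6 CPM in PEAR1 1 to 4. AUR2 (AT2G25880), its close relative, had 118 and 50.1 CPM, against 22.5, 15.0, 16.9 and 21.2 CPM. Their log2 differences were 2.23 ± 0.27 (adjusted p = 4.19e-04) and 2.15 ± 0.27 (adjusted p = 4.55e-04), and both kept the call whichever library was left out, at 1.60 and 1.41 without PEAR1-DBOX 3. WYR, the INCENP partner of Aurora kinases, also rose, with both PEAR1-DBOX libraries above all PEAR1 libraries (log2 1.14 ± 0.27; adjusted p = 0.0318). BUBR1 and BUB3.1, of the checkpoint that holds back the APC/C until chromosomes are attached, rose too. BUBR1 had 186 and 75.5 CPM, against 25.3, 19.7, 18.5 and 24.6 CPM (log2 2.57 ± 0.43; adjusted p = 0.00501), and BUB3.1 had 142 and 84.3 CPM, against 47.0, 31.8, 31.9 and 39.9 CPM (log2 1.59 ± 0.39; adjusted p = 0.0381).

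PANS1, or PATRONUS1, which protects cohesion at centromeres and is itself a target of the APC/C, had 201 and 104 CPM in PEAR1-DBOX, against 32.0, 22.8, 19.3 and 26.6 CPM in PEAR1 (log2 2.60 ± 0.46; adjusted p = 0.00632). The checkpoint gene MAD2 and the spindle assembly factor TPX2 did not pass edgeR's test, although their libraries did not overlap and limma voom called both higher. MAD2 had 288 and 101 CPM, against 27.9, 23.8, 22.3 and 24.6 CPM (log2 2.98 ± 1.00; adjusted p = 0.137), and TPX2 had 266 and 86.5 CPM, against 43.5, 30.1, 24.3 and 33.5 CPM (log2 2.42 ± 0.91; adjusted p = 0.188). Without PEAR1-DBOX 3 the calls of WYR, BUBR1, BUB3.1 and PANS1 ended, at log2 values of 0.63, 1.78, 1.16 and 2.05. WYR and BUB3.1 lost it also without any 1 of PEAR1 2, 3 and 4.

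The list of spindle, phragmoplast and cytokinesis genes had 7 of 32 members that rose and a median log2 difference of 1.46, or 1.01 without PEAR1-DBOX 3. limma voom called 20 of them higher and DESeq2 11. In 26 of the 32 both PEAR1-DBOX libraries lay above all PEAR1 libraries, against 19.5% of all nuclear genes. PLE (AT5G51600), the microtubule bundler MAP65-3 of the phragmoplast midzone, had 253 and 108 CPM in PEAR1-DBOX 3 and 5, against 37.0, 28.9, 21.8 and 39.4 CPM in PEAR1 1 to 4 (log2 2.50 ± 0.33; adjusted p = 6.62e-04). EB1C, which binds growing microtubule ends, had 189 and 77.5 CPM, against 24.8, 17.6, 18.6 and 25.4 CPM (log2 2.62 ± 0.67; adjusted p = 0.0479). ANP3 and RUK, kinases needed for building the division plate, rose by 1.62 ± 0.33 (adjusted p = 0.0136) and 1.69 ± 0.40 (adjusted p = 0.0327) on the log2 scale. AT2G28620, a list member that the reference annotates as a P-loop nucleoside triphosphate hydrolase, rose by 2.10 ± 0.47, the microtubule nucleation protein gene GIP1 by 1.41 ± 0.36 and the dynamin gene DRP1A by 0.79 ± 0.19.

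KN, the syntaxin KNOLLE that fuses vesicles at the division plate, had the largest log2 difference of the list. It did not pass edgeR's test but passed with limma voom (adjusted p = 5.09e-05) and DESeq2 (adjusted p = 0.0352). It had 416 and 157 CPM in PEAR1-DBOX, against 41.7, 32.4, 33.9 and 36.3 CPM in PEAR1 (log2 2.99 ± 0.86; adjusted p = 0.0812). Each of the 7 calls ended without PEAR1-DBOX 3, at log2 values between 0.46 for DRP1A and 1.84 for EB1C, with PLE at 1.76. EB1C and GIP1 lost the call also without any 1 PEAR1 library, RUK, AT2G28620 and DRP1A without any 1 of PEAR1 2, 3 and 4, and ANP3 without PEAR1 3.

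Lists of other cell cycle genes held few calls. None of 33 DNA replication genes, 10 A-type cyclins, 10 D-type cyclins, 10 cell cycle inhibitors or 11 cohesin and condensin genes passed edgeR's test in either direction. An unadjusted p below 0.05 was found for 3, 1, 0, 2 and 2 of them, against 16.0% of all nuclear genes. With limma voom 1, 1, 1, 0 and 2 were higher, and with DESeq2 1 replication gene and 2 inhibitors were lower. With only the 2 lines fitted, edgeR called 1, 1, 1, 0 and 2 higher, and 1 replication gene and 2 inhibitors lower. Their median log2 differences were -0.34, 0.65, -0.41, -0.71 and 0.44, and without PEAR1-DBOX 3 they were -0.65, 0.42, -0.20, -0.66 and 0.16. MCM5, a subunit of the replicative helicase, had 56.9 and 41.5 CPM in PEAR1-DBOX 3 and 5, against 114, 88.5, 73.2 and 81.7 CPM in PEAR1 1 to 4 (log2 -0.86 ± 0.56; adjusted p = 0.484). The licensing factor CDT1A had 22.1 and 22.7 CPM, against 49.1, 41.5, 37.3 and 48.8 CPM (log2 -0.98 ± 0.35; adjusted p = 0.163, and 0.0143 with DESeq2), while its paralogue CDT1B had 81.5 and 48.3 CPM, against 29.4, 21.6, 20.0 and 16.8 CPM (log2 1.57 ± 0.56; adjusted p = 0.164, and 0.00265 with limma voom). CYCA1;1 had 191 and 89.6 CPM, against 32.3, 28.0, 23.4 and 17.3 CPM (log2 2.47 ± 0.82; adjusted p = 0.135, and 4.72e-04 with limma voom). KRP2, an inhibitor of cyclin-dependent kinases, had 5.88 and 6.65 CPM, against 17.7 to 23.8 CPM (log2 -1.70 ± 0.59; adjusted p = 0.1502, and 0.0114 with DESeq2).
Of 28 histone genes edgeR called 1 lower, limma voom 1 higher and 1 lower, and DESeq2 4 lower. The gene that fell was AT1G06760, with 180 and 130 CPM in PEAR1-DBOX, against 258, 267, 241 and 308 CPM in PEAR1 (log2 -0.79 ± 0.20; adjusted p = 0.0412). That call ended without any 1 of the 6 libraries, at log2 values from -1.05 to -0.57. TOPII, the topoisomerase that disentangles chromosomes, was in no list but rose with all libraries and without any 1 of the 6. It had 512 and 226 CPM, against 107, 101, 73.7 and 101 CPM (log2 1.95 ± 0.24; adjusted p = 4.55e-04), and the log2 value was 1.24 without PEAR1-DBOX 3.

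**Figure D2:**
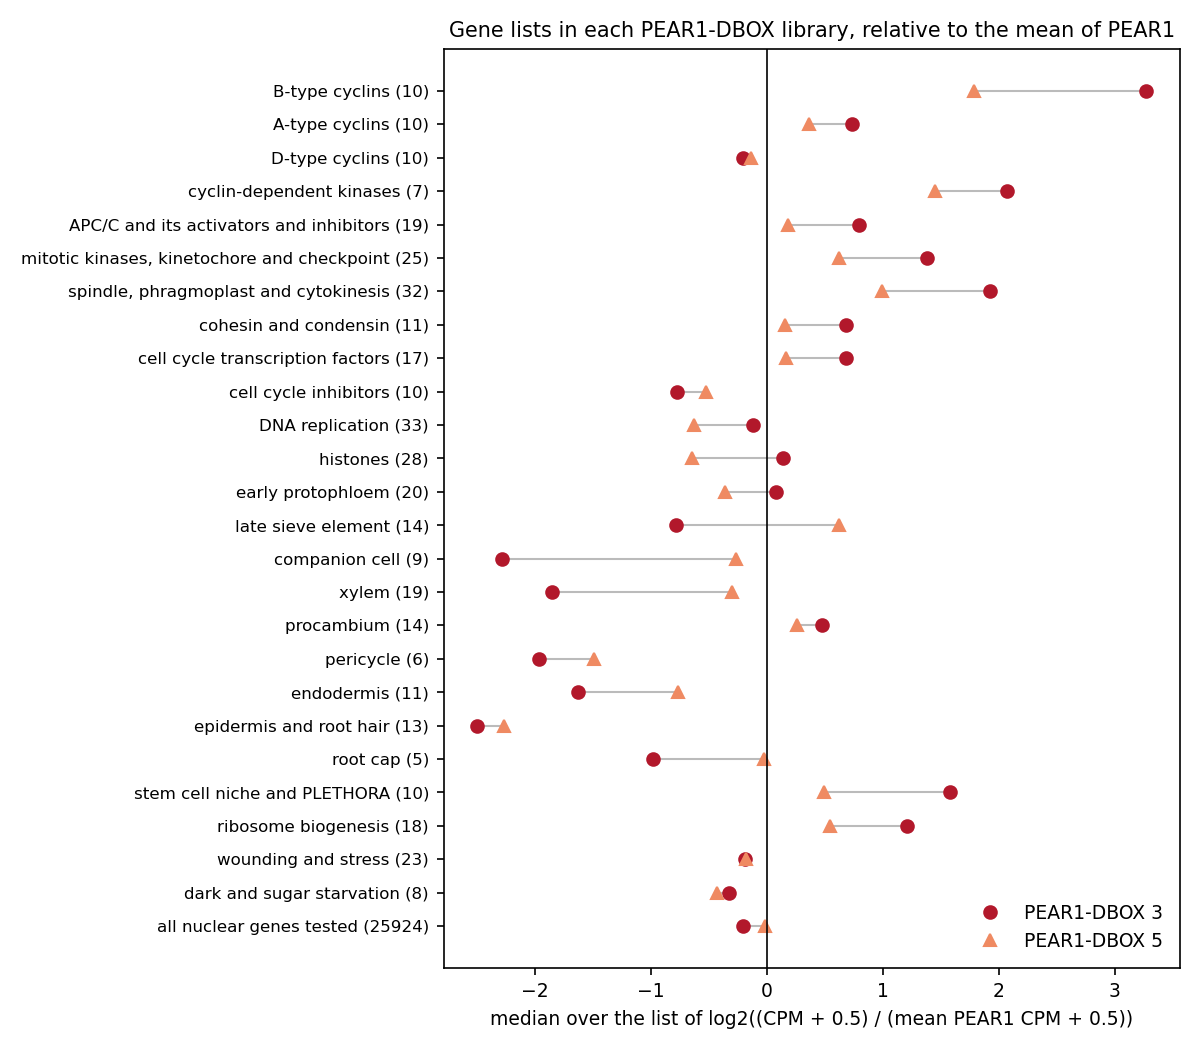
Median over each gene list (members tested in brackets) of log2((CPM + 0.5) / (mean PEAR1 CPM + 0.5)), for PEAR1-DBOX 3 (circles) and PEAR1-DBOX 5 (triangles). The mitotic lists lie right of 0 in both libraries, further so in PEAR1-DBOX 3, while the late sieve element list lies at -0.78 in PEAR1-DBOX 3 and 0.62 in PEAR1-DBOX 5.

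The 2 PEAR1-DBOX libraries differed in how far they departed from PEAR1 and, for some lists, in direction. On the log2(CPM + 0.5) scale, relative to the mean of PEAR1, B-type cyclins had medians of 3.27 in PEAR1-DBOX 3 and 1.78 in PEAR1-DBOX 5. Of the 93 members of the 5 mitotic lists 84 were higher in PEAR1-DBOX 3 than in PEAR1-DBOX 5, against 42.9% of all nuclear genes. Late sieve element genes, which act when the cell loses its nucleus, ran the other way, with 2 of 14 higher in PEAR1-DBOX 3. CALS7, a callose synthase of sieve plates, had 48.3 CPM in PEAR1-DBOX 3 and 258 CPM in PEAR1-DBOX 5, against 174, 247, 148 and 225 CPM in PEAR1 1 to 4. NEN4, a nuclease of the dismantling of the nucleus, had 32.3 and 132 CPM, against 17.4, 30.9, 48.1 and 46.0 CPM.

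The NAC transcription factor genes upstream of that nuclease split likewise. NAC045 had 71.9 and 220 CPM in PEAR1-DBOX 3 and 5, against 94.8, 136, 139 and 135 CPM in PEAR1 1 to 4, and NAC086 had 68.0 and 205 CPM, against 103, 162, 173 and 160 CPM. For both genes PEAR1-DBOX 3 lay below and PEAR1-DBOX 5 above all 4 PEAR1 libraries. SEOR1, which forms filaments in mature sieve elements, had 0.318 and 32.9 CPM, against 9.72, 48.7, 49.4 and 50.9 CPM. No late sieve element gene passed edgeR's test, and 2 of 14 had an unadjusted p below 0.05, while DESeq2 called 1 lower and limma voom none. The gene called lower was NAC028, which had the smallest p of the list in edgeR's test and did not split in this way. Its log2 difference was -0.59 (adjusted p = 0.0793, and 0.017 with DESeq2). The value was -0.80 without PEAR1-DBOX 3 and -0.41 without PEAR1-DBOX 5.

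Of 20 early protophloem genes tested, BAM3 (AT4G20270), the receptor kinase for CLE45 peptide, fell and the other 19 did not pass edgeR's test, with a median log2 difference of -0.14, or -0.36 without PEAR1-DBOX 3. limma voom and DESeq2 each called 3 of the 20 lower. In 2 of the 20 both PEAR1-DBOX libraries lay above all PEAR1 libraries and in 6 below them, against 19.5% and 21.8% of all nuclear genes. BAM3 had 329 and 265 CPM in PEAR1-DBOX 3 and 5, against 643, 733, 560 and 616 CPM in PEAR1 1 to 4 (log2 -1.10 ± 0.24; adjusted p = 0.0235). Both PEAR1-DBOX libraries stood below all PEAR1 libraries, here with PEAR1-DBOX 5 the lower. The call ended without PEAR1-DBOX 3 (-1.27), PEAR1-DBOX 5 (-0.95) or PEAR1 2 (-1.03). BRX, a regulator of sieve element polarity, had 34.5 and 77.0 CPM, against 85.3, 107, 100 and 117 CPM (log2 -0.88 ± 0.25; adjusted p = 0.0799, and 0.0137 with DESeq2 and 0.0429 with limma voom), and APL, a MYB factor of phloem identity, had 170 and 248 CPM, against 315, 337, 339 and 452 CPM (log2 -0.79 ± 0.26; adjusted p = 0.136, and 0.0403 with DESeq2).

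Summed pericycle markers, and summed epidermis and root hair markers, were lower in both PEAR1-DBOX libraries than in every PEAR1 library. No single gene passed edgeR's test among 19 xylem, 6 pericycle, 11 endodermis, 13 epidermis and root hair and 9 companion cell genes. Unadjusted p-values below 0.05 were found for 0, 1, 1, 5 and 0 of them, against 16.0% of all nuclear genes. DESeq2 called 1 pericycle, 1 endodermis and 4 epidermis and root hair genes lower, and limma voom 1 pericycle gene lower and 1 companion cell gene higher. With only the 2 lines fitted, edgeR called 2 pericycle and 2 epidermis and root hair genes lower, and 1 companion cell gene higher. Pericycle markers summed to 25.0 and 97.3 CPM in PEAR1-DBOX 3 and 5, against 193, 377, 311 and 315 CPM in PEAR1 1 to 4. PHO1, which loads phosphate into the xylem, made up most of that sum, with 13.0 and 80.6 CPM in PEAR1-DBOX, against 158, 315, 253 and 258 CPM (log2 -2.40 ± 1.31; adjusted p = 0.394, and 0.0447 with limma voom). Epidermis and root hair markers summed to 37.5 and 83.5 CPM, against 106, 225, 97.2 and 141 CPM. COBL9, a cell wall gene of root hairs, was at 0 and 0.0293 CPM in PEAR1-DBOX, against 0.366, 13.1, 9.44 and 4.16 CPM in PEAR1.

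Xylem markers summed to 32.7 and 118 CPM in PEAR1-DBOX 3 and 5, against 243, 48.5, 153 and 138 CPM in PEAR1 1 to 4, so these groups overlapped. In PEAR1-DBOX 3, 8 of 19 xylem and 5 of 11 endodermis markers had no count, whereas in PEAR1-DBOX 5 and in the PEAR1 libraries none of either list was at 0. Genes outside these lists were also without a count more often in PEAR1-DBOX 3. Of 33323 nuclear loci, 22582 had a count in PEAR1-DBOX 3, 28156 in PEAR1-DBOX 5 and 29277 to 30449 in the PEAR1 libraries. The pericycle, endodermis and epidermis sums were below every PEAR1 library in both PEAR1-DBOX libraries, and lowest in PEAR1-DBOX 3, where mitotic genes were highest. For endodermis and epidermis the gap was narrow. PEAR1-DBOX 5 was at 10.5 and 83.5 CPM, and the lowest PEAR1 library at 11.3 and 97.2 CPM. The part of these sums in the mitotic result was not tested.

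**Figure D3:**
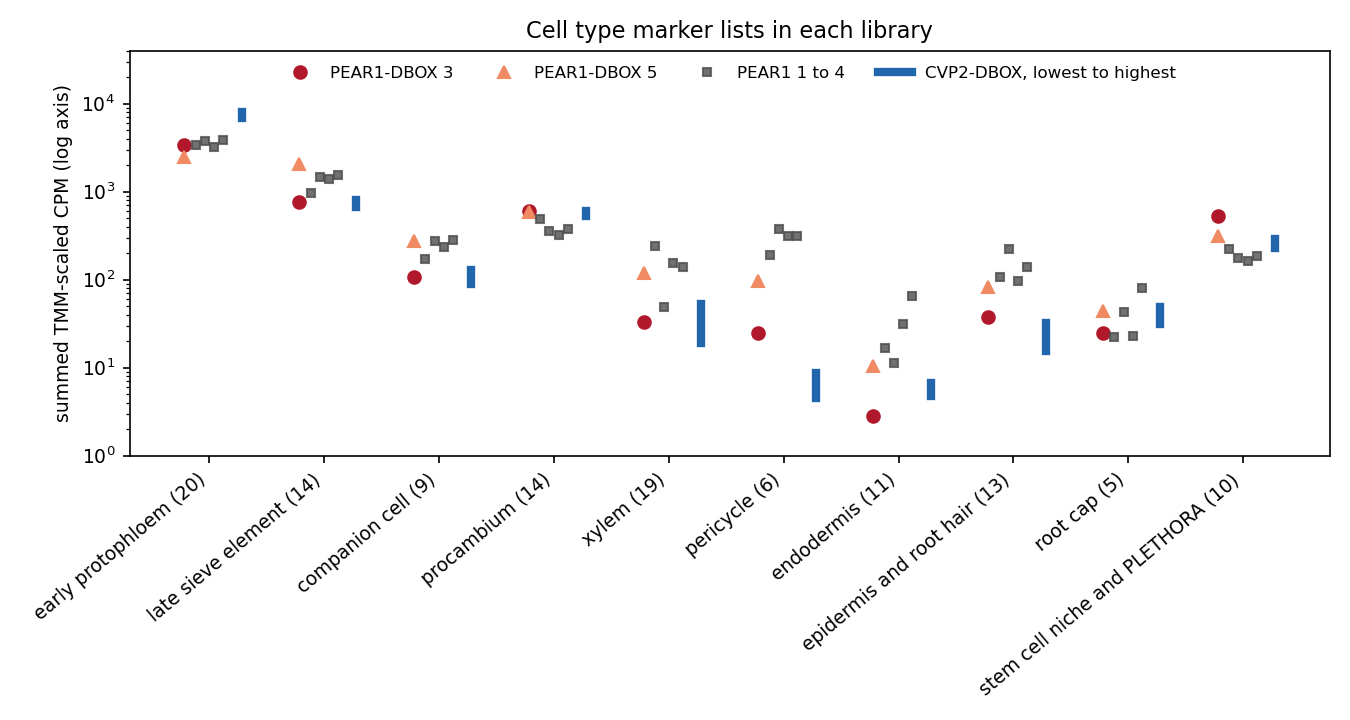
Summed TMM-scaled CPM (log axis) of the markers of each cell type (genes tested in brackets), with PEAR1-DBOX 3 (circles) and PEAR1-DBOX 5 (triangles) left of PEAR1 1 to 4 (squares), and a bar from the lowest to the highest CVP2-DBOX library. Pericycle markers lie at 25.0 and 97.3 CPM in PEAR1-DBOX, below all PEAR1 libraries, and stem cell niche and PLETHORA genes at 529 and 316 CPM, above them.

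The stem cell niche and PLETHORA, procambium and ribosome biogenesis lists had medians on the higher side without a member that passed edgeR's test. The 10 stem cell niche and PLETHORA genes summed to 529 and 316 CPM in PEAR1-DBOX 3 and 5, against 226, 175, 164 and 187 CPM in PEAR1 1 to 4, with a median log2 difference of 1.11, or 0.50 without PEAR1-DBOX 3. Of these 2 had an unadjusted p below 0.05, limma voom called 4 higher and DESeq2 none. With only the 2 lines fitted, edgeR called 4 higher and 1 lower. Both PEAR1-DBOX libraries lay above all PEAR1 libraries in 6 of the 10 and below them in 2, against 19.5% and 21.8% of all nuclear genes. PLT1, PLT2 and WOX5, given next, all lay on the higher side. AIL7 and AIL6, with the smallest p of the list in edgeR's test, are not among them. PLT1, a dose-dependent regulator of the root meristem, had 58.8 and 35.9 CPM, against 12.3, 10.4, 12.5 and 13.4 CPM (log2 1.96 ± 1.19; adjusted p = 0.448). PLT2, its close relative, had 80.0 and 49.2 CPM, against 25.7, 18.7, 17.3 and 23.9 CPM (adjusted p = 0.521), and WOX5, a gene of the quiescent centre, had 16.1 and 15.5 CPM, against 5.52, 2.71, 3.45 and 3.93 CPM (adjusted p = 0.398). The 14 procambium genes tested summed to 604 and 584 CPM, against 324 to 496 CPM in PEAR1, with a median log2 difference of 0.34. In 6 of the 14 both PEAR1-DBOX libraries lay above all PEAR1 libraries, and in 1 below them. limma voom called 2 of the 14 higher, DESeq2 1, and edgeR with only the 2 lines fitted 3. HB-8, an HD-ZIP III factor of this list, had 33.5 and 74.2 CPM, against 14.8, 7.24, 8.27 and 7.20 CPM (log2 2.52 ± 0.77; adjusted p = 0.0996, and 0.0253 with DESeq2 and 0.0128 with only the 2 lines fitted). All 18 ribosome biogenesis genes were above the PEAR1 mean in both PEAR1-DBOX libraries, as were 30.9% of all nuclear genes. Their median log2 difference was 0.93, or 0.55 without PEAR1-DBOX 3. None of the 18 passed edgeR's test with all lines fitted, and 2 did with only the 2 lines fitted. An unadjusted p below 0.05 was found for 2, limma voom called 2 and DESeq2 1. FIB2, a fibrillarin of the nucleolus with a near-identical copy, had 738 and 675 CPM, against 492, 200, 215 and 292 CPM.

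The 10 largest rises, among genes that average 20 CPM or more in PEAR1-DBOX, have a symbol and show no overlap between libraries, held 8 of the mitotic genes described above and 2 others. ERD9, a glutathione transferase gene, had 32.4 and 17.6 CPM in PEAR1-DBOX 3 and 5, against 4.27, 1.96, 2.24 and 2.56 CPM in PEAR1 1 to 4 (log2 3.18 ± 0.82; adjusted p = 0.0469). JOSL, which encodes a Josephin-type protein, had 30.1 and 21.9 CPM, against 3.93, 5.00, 4.25 and 3.70 CPM (log2 2.62 ± 0.60; adjusted p = 0.0279). Both calls ended without PEAR1-DBOX 3, at log2 values of 2.68 and 2.38, and without any 1 of the PEAR1 libraries.

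The 10 largest falls, by the same rule, included genes of transport and metabolism. UMAMIT11, an amino acid transporter gene, had 0.504 and 7.53 CPM in PEAR1-DBOX 3 and 5, against 42.7, 196, 171 and 148 CPM in PEAR1 1 to 4 (log2 -5.12 ± 1.23; adjusted p = 0.0374). NRT1:2, a nitrate transporter gene, had 10.5 and 41.6 CPM, against 91.6, 166, 145 and 136 CPM (log2 -2.37 ± 0.50; adjusted p = 0.0191). PHO2, a ubiquitin-conjugating enzyme that limits phosphate uptake, had 8.67 and 19.2 CPM, against 35.1, 115, 83.6 and 89.5 CPM (log2 -2.53 ± 0.58; adjusted p = 0.0285). In these 3 genes PEAR1-DBOX 3 was the lowest library and PEAR1 1 the lowest of the PEAR1 libraries.

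Enzymes among the 10 were GSH1, of the first step of glutathione synthesis, AAH, which breaks down allantoate, and AAE17, an acyl-activating enzyme. GSH1 had 53.0 and 171 CPM in PEAR1-DBOX, against 412, 696, 698 and 592 CPM in PEAR1 (log2 -2.42 ± 0.61; adjusted p = 0.0429). AAH and AAE17 fell by 3.16 ± 0.69 (adjusted p = 0.0226) and 2.99 ± 0.60 (adjusted p = 0.0132) on the log2 scale. The others were PCAP1, a cation-binding protein of the plasma membrane (log2 -3.40 ± 0.84), BRG1, annotated as an S-ribonuclease binding protein (-2.57 ± 0.41), FAF3, of the FAF family (-2.33 ± 0.56), and DIN10. Of the 10, DIN10 kept its call without PEAR1-DBOX 3 and the other 9 lost it, at log2 values from -4.21 for UMAMIT11 to -1.48 for FAF3. PCAP1 lost it without any 1 of the 6, UMAMIT11, PHO2, GSH1 and FAF3 also without PEAR1 2, 3 or 4, AAH without PEAR1 2 or 3, and NRT1:2 without PEAR1 2. Without PEAR1-DBOX 5 the differences were larger, at -8.10 for UMAMIT11 and -4.58 for FAF3.

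Across the 595 called genes, 21 were called in the same direction in the fit of all libraries and in each of the 6 fits that left out 1 library, 18 higher (0.0694% of the nuclear genes) and 3 lower (0.0116%). Besides CYCB1;3, AUR1, AUR2 and TOPII the higher ones included RAN-1, a small GTPase of nuclear transport and spindle assembly, with 392 and 309 CPM in PEAR1-DBOX 3 and 5, against 161, 101, 120 and 145 CPM in PEAR1 1 to 4 (log2 1.41 ± 0.18; adjusted p = 4.55e-04). AT1G72250, which the reference annotates as a protein with a kinesin motor domain, had 200 and 92.2 CPM, against 46.0, 36.4, 23.8 and 35.2 CPM (log2 2.05 ± 0.25, and 1.38 without PEAR1-DBOX 3). In both genes all PEAR1-DBOX values exceeded all PEAR1 values.

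Other genes of the 21 were close in the 2 PEAR1-DBOX libraries. They carry no mitotic annotation in the reference, and those without a symbol were chosen after their values were seen. AT5G16010, annotated as a steroid dehydrogenase family protein, had 186 and 137 CPM in PEAR1-DBOX 3 and 5, against 12.2, 9.11, 10.5 and 11.3 CPM in PEAR1 1 to 4, and rose 15.0-fold (log2 3.91 ± 0.37; adjusted p = 9.1e-05). MPL1, a lipase gene known from the response to aphids, had 42.4 and 40.4 CPM, against 12.7, 9.72, 10.3 and 9.40 CPM (log2 1.97 ± 0.23; adjusted p = 4.19e-04). AT5G05600, an oxygenase family gene, had 140 and 143 CPM, against 37.3, 44.0, 41.7 and 37.4 CPM, and AT5G54170, a lipid transport family gene, had 100 and 87.1 CPM, against 29.6, 27.3, 25.9 and 27.6 CPM. In these 4 genes both PEAR1-DBOX libraries lay above every PEAR1 library and within 1.5-fold of each other.

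The remaining higher genes of the 21 were AT3G12510, AT3G19910, AT1G14480, MRD1, AT5G60610, AT5G45350, AT2G01008 and AT1G19415, with log2 differences from 1.299 for AT3G19910 to 3.69 for MRD1. AT2G01008, annotated as a maternal effect embryo arrest protein, had 413 and 456 CPM in PEAR1-DBOX, against 133, 80.0, 83.2 and 101 CPM in PEAR1. The 3 lower genes were DIN10, GATA4 and HWS. DIN10, a dark-inducible gene of the raffinose synthase family, had 10.6 and 20.8 CPM, against 66.8, 150, 153 and 126 CPM (log2 -2.98 ± 0.36; adjusted p = 4.19e-04), and was the 1 member of 8 dark and sugar starvation genes that changed. GATA4, a zinc finger transcription factor gene, had 12.9 and 17.1 CPM, against 41.5, 40.1, 42.9 and 51.6 CPM (log2 -1.55 ± 0.18; adjusted p = 4.19e-04). HWS, the F-box gene HAWAIIAN SKIRT, had 9.44 and 52.6 CPM, against 115, 127, 124 and 122 CPM (log2 -1.98 ± 0.41; adjusted p = 0.0162, and no call with only the 2 lines fitted), and its log2 value was -1.22 without PEAR1-DBOX 3 and -3.69 without PEAR1-DBOX 5.

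**Figure D4:**
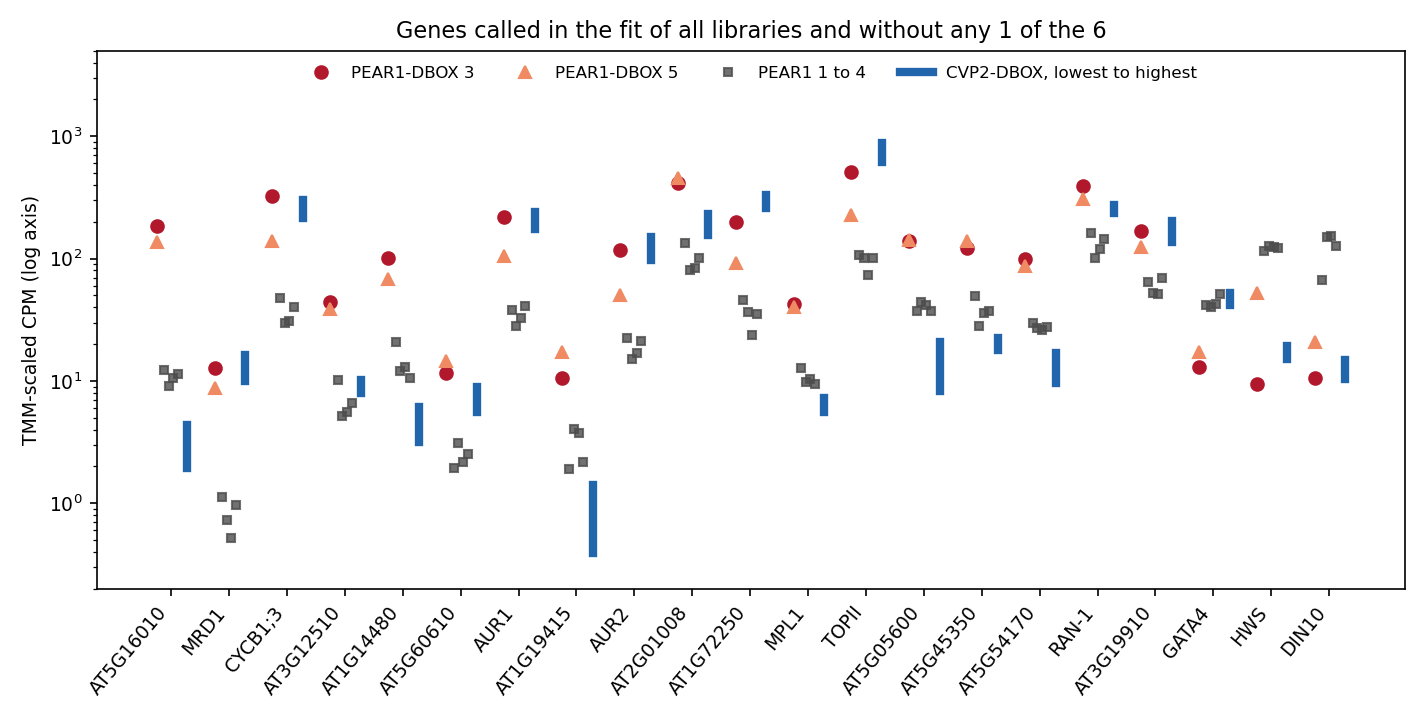
TMM-scaled CPM (log axis) of the 21 genes called in the same direction in the fit of all libraries and without any 1 of the 6, in order of log2 difference, with PEAR1-DBOX 3 (circles) and PEAR1-DBOX 5 (triangles) left of PEAR1 1 to 4 (squares), and a bar from the lowest to the highest CVP2-DBOX library. For CYCB1;3 PEAR1-DBOX 3 lies above the CVP2-DBOX bar and PEAR1-DBOX 5 below it, while AT5G16010, MPL1, AT5G05600 and AT5G54170 lie above both other lines.

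The CVP2-DBOX line (n = 4), in which a destruction box reporter is driven by the promoter of the phosphoinositide phosphatase gene CVP2, gives a second point of comparison that shares the kind of reporter but not the promoter. It was compared with the same 2 PEAR1-DBOX libraries in the same model, with no fit without PEAR1-DBOX 3, so these 2 comparisons are not independent, and PEAR1-DBOX was above CVP2-DBOX in 2117 nuclear genes (8.17%) and below it in 1005 (3.88%). For CYCB1;3, PLE and CYCB1;1 the difference between these 2 lines did not pass the test. CYCB1;3 averaged 231 ± 130 CPM in PEAR1-DBOX (SD, n = 2) and 250 ± 37.5 CPM in CVP2-DBOX (SD, n = 4), with a log2 difference of -0.12 ± 0.32 (SE; adjusted p = 0.919). PLE averaged 180 ± 103 CPM in PEAR1-DBOX and 247 ± 53.0 CPM in CVP2-DBOX (log2 -0.46 ± 0.34; adjusted p = 0.514). CYCB1;1 averaged 342 ± 98.9 CPM in PEAR1-DBOX and 757 ± 100.2 CPM in CVP2-DBOX (log2 -1.15 ± 1.09; adjusted p = 0.645). TOPII was lower in PEAR1-DBOX, at 369 ± 202 CPM, against 755 ± 106 CPM in CVP2-DBOX (log2 -1.03 ± 0.26; adjusted p = 0.0125). These means cover 2 unlike libraries. The 93 members of the 5 mitotic lists summed to 11578 and 5825.6 CPM in PEAR1-DBOX 3 and 5, against 11151.2 to 15305.7 CPM in CVP2-DBOX. PEAR1-DBOX 5 was thus below every CVP2-DBOX library in this sum, and PEAR1-DBOX 3 within their range.

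The genes close in both PEAR1-DBOX libraries stood apart from CVP2-DBOX too. AT5G16010 averaged 162 ± 34.7 CPM in PEAR1-DBOX and 2.88 ± 1.03 CPM in CVP2-DBOX (log2 5.81 ± 0.40; adjusted p = 8.74e-08), and MPL1 averaged 41.4 ± 1.41 CPM in PEAR1-DBOX and 6.44 ± 0.69 CPM in CVP2-DBOX (log2 2.68 ± 0.23; adjusted p = 1.02e-06). AT5G05600 was higher than in CVP2-DBOX by 3.46 ± 0.29 (adjusted p = 5.16e-07) and AT5G54170 by 2.73 ± 0.21 (adjusted p = 2.33e-07) on the log2 scale. GATA4 was lower in PEAR1-DBOX than in CVP2-DBOX as well, by a log2 difference of -1.63 ± 0.19 (adjusted p = 1.16e-05). DIN10 and HWS did not pass against CVP2-DBOX, at 0.39 ± 0.30 and 0.86 ± 0.36. BAM3 was lower than in CVP2-DBOX, where it averaged 906 ± 117 CPM, by -1.61 ± 0.25 on the log2 scale (adjusted p = 2.67e-04).

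Summed touch and wound genes overlapped between PEAR1-DBOX and PEAR1, and both lines lay above CVP2-DBOX. The 23 wounding and stress genes summed to 2241.8 and 2355.3 CPM in PEAR1-DBOX 3 and 5, 2264.8 to 2448.5 CPM in PEAR1, and 403 to 595 CPM in CVP2-DBOX. OPR3, an enzyme of jasmonate synthesis, was the 1 member that rose over PEAR1 in edgeR's test, with 140 and 150 CPM in PEAR1-DBOX, against 92.1, 92.8, 82.1 and 112 CPM in PEAR1 (log2 0.61 ± 0.16; adjusted p = 0.0456). It did not pass with limma voom (adjusted p = 0.0589) or DESeq2 (adjusted p = 0.0713). limma voom called 3 members higher and 1 lower, and DESeq2 1 higher and 2 lower. That call ended without any 1 of PEAR1-DBOX 3, PEAR1-DBOX 5, PEAR1 1, PEAR1 2 and PEAR1 3, with log2 values from 0.55 to 0.70 over the 6 fits. TCH4 and TCH3, touch-induced genes of wall loosening and calcium binding, did not pass edgeR's test, while limma voom called both higher (adjusted p = 4.99e-04 and 5.38e-04) and DESeq2 TCH4 (adjusted p = 0.0140). TCH4 had 136 and 123 CPM in PEAR1-DBOX, against 61.4, 35.6, 42.4 and 40.1 CPM in PEAR1 (log2 1.53 ± 0.41; adjusted p = 0.0588).

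The number of calls depended on single libraries. The 365 higher and 230 lower genes became 23 and 7 without PEAR1-DBOX 3, 642 and 901 without PEAR1-DBOX 5, 113 and 73 without PEAR1 2, 121 and 85 without PEAR1 3, and 232 and 110 without PEAR1 4. With PEAR1 1 and 3 alone on that side, the libraries with the lowest summed epidermis and root hair markers, they were 22 and 4. Of the 595 called genes, 593 had no overlap between the 2 PEAR1-DBOX and 4 PEAR1 libraries. The calls were made on these same libraries, so this adds no support to them. Of all nuclear genes 19.5% had no overlap and were higher, and 21.8% had none and were lower. An unadjusted p below 0.05 was found for 4160 nuclear genes (16.0%). With median-of-ratios size factors in place of TMM, which moved the median of all genes by -0.12 on the log2 scale, 206 genes were higher and 243 lower.

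**Figure D5:**
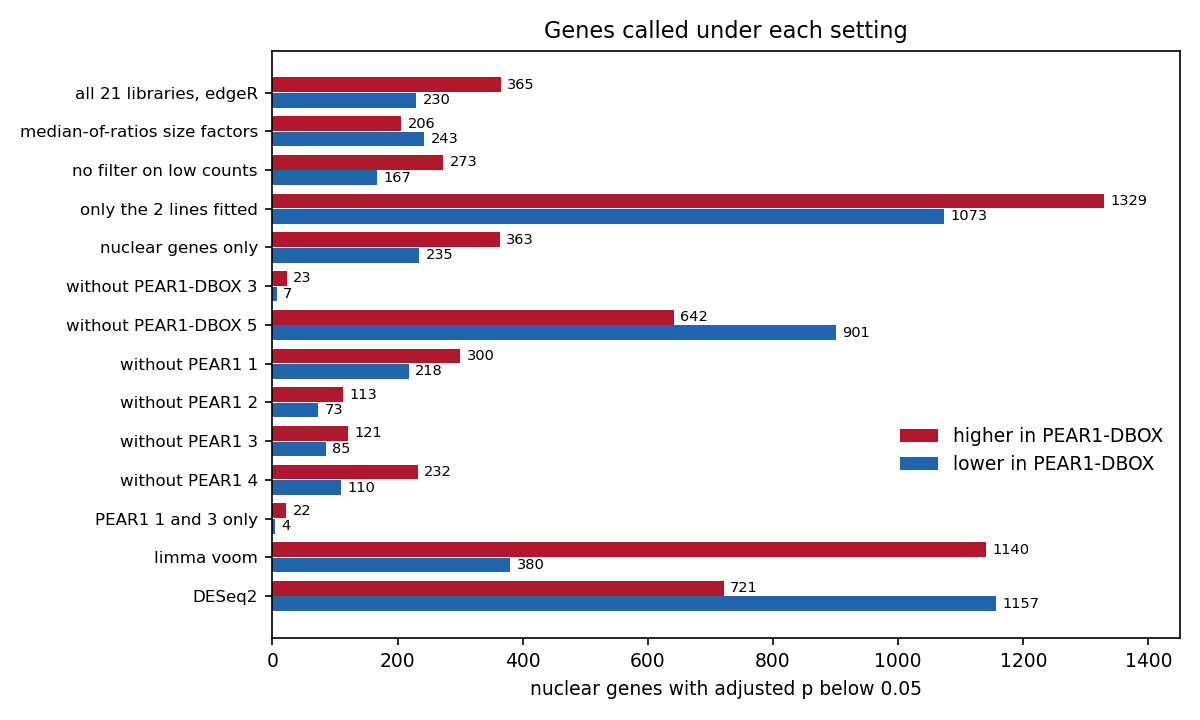
Number of nuclear genes with an adjusted p below 0.05, higher (upper bar of each pair) and lower (lower bar) in PEAR1-DBOX than in PEAR1, under each setting. The count is lowest without PEAR1-DBOX 3 (23 and 7) and with PEAR1 1 and 3 only (22 and 4), and highest for genes higher with only these 2 lines fitted (1329).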

How the data were processed

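RNA of sorted cells was amplified by PCR and sequenced, per the labels' protocols. The authors deposited 1 raw read count per gene and library. The tools named in the submitters' processing notes are Bowtie2, featureCounts and edgeR, with TAIR10 as genome build. No source used here gives versions or the handling of strand, so reads of overlapping or antisense genes cannot be told apart. Per the file headers, the alignments behind the PEAR1-DBOX counts were named by another scheme than those behind the PEAR1 counts, and whether both were processed alike is not stated.

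A single model was fitted to the 21 libraries with edgeR 4.0.16 under R 4.3.3, with a coefficient for each line, TMM scaling, filterByExpr (26074 of 33602 loci kept, 25924 of them nuclear), robust quasi-likelihood fits and F tests of PEAR1-DBOX minus PEAR1 and PEAR1-DBOX minus CVP2-DBOX. P-values were adjusted by Benjamini-Hochberg over all genes tested at 0.05. The common dispersion was 0.377. The procedure was also run on simulated counts with a lower dispersion than this, which does not show how it performs on these data. Log2 values of single libraries used a pseudocount of 0.5 CPM. Symbols and products came from the RefSeq annotation of TAIR10.1, which held 32835 of the loci. Totals of 26138629 to 36163248 counts support genes of a few CPM, and without molecular identifiers reads are not independent molecules.

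The comparison, 25 gene lists (385 of 392 members kept) and rules were chosen with earlier results of these data known. A set of 106 genes was followed through the alternatives. Genes are named by size (10 each way, mean of at least 20 CPM, symbol, no overlap), by being called in all 6 fits without 1 library, as up to 4 members of each list by p, and as PEAR1 and CYCB1;1. Of the 106, 37 were chosen after their values were seen: the other B-type cyclins and cyclin-dependent kinases, further mitotic genes, late sieve element genes, FZR1, PLT2, FIB2, MYB3R-4 and loci without a symbol. Alternatives were median-of-ratios factors, no filter, DESeq2 1.42.0, limma 3.58.1 voom with sample weights, only the 2 lines, nuclear genes only, each library left out, and PEAR1 1 and 3 only. Genes without an adjusted p from DESeq2, CYCB1;4 among them, were counted as not called by it. Leaving out 1 PEAR1-DBOX library leaves 1, which is assumed to vary like the other lines. Figures used matplotlib 3.10.9.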

Additional observations from a re-analysis of the deposited data

Results flagged for a closer look

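Among the 4 PEAR1 libraries, 9 of the 106 genes followed had 1 library whose gap to the next exceeded Dixon's critical value, which chance gives in about 1 of 20 groups. PEAR1 1 was the lowest for AAH (11.9 CPM), AAE17 (93.9 CPM), SEOR1 (9.72 CPM), NAC045 (94.8 CPM) and CYCB1;5 (1.01 CPM). It was the highest for CYCB2;3 (22.8 CPM), HB-8 (14.8 CPM) and TCH3 (63.0 CPM). PEAR1 2 was the lowest for CYCB2;1, at 7.10 CPM. For all of these except SEOR1, NAC045 and CYCB1;5, PEAR1 1 or PEAR1 2 still lay on the same side of both PEAR1-DBOX libraries as the other PEAR1 libraries. For NAC045 all 4 PEAR1 libraries lay between PEAR1-DBOX 3 and PEAR1-DBOX 5.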

How the results depend on the processing

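Genes higher in PEAR1-DBOX than in PEAR1 (365) and genes lower in PEAR1-DBOX than in PEAR1 (230) numbered 206 and 243 with median-of-ratios factors, 1329 and 1073 with only the 2 lines fitted, 1140 and 380 with limma voom, 721 and 1157 with DESeq2, and 22 and 4 with PEAR1 1 and 3 only. They were 273 and 167 with no filter and 363 and 235 with nuclear genes only. Leaving out 1 library gave 23 to 642 higher and 7 to 901 lower genes. Of 57 genes followed that passed, 36 lost the call without PEAR1-DBOX 3, 5 without PEAR1-DBOX 5, 11, 25, 24 and 21 without PEAR1 1, 2, 3 and 4, and 39 with PEAR1 1 and 3 only. With median-of-ratios factors 8 lost it (EB1C, CDKB2;1, HBT, MYB3R-3, DRP1A, GIP1, ERD9 and OPR3), with no filter 11 (CYCB1;1, ERD9, EB1C, UMAMIT11, PCAP1, GSH1, CDKB2;1, MYB3R-3, AT1G06760, OPR3 and GIP1), with only the 2 lines fitted 7 (FAF3, HWS, HBT, AT1G06760, OPR3, WYR and DRP1A), with limma voom 5 (UMAMIT11, AAH, PHO2, MYB3R-3 and OPR3), with DESeq2 OPR3, and with nuclear genes only none. None of the 57 changed direction under the 13 alternatives. Late sieve element genes that did not pass changed sign: across the fits without 1 library NEN4 ran from -0.14 to 1.89, NAC045 from -0.81 to 0.80, NAC086 from -1.13 to 0.45 and CALS7 from -2.04 to 0.38 on the log2 scale, with the ends at PEAR1-DBOX 5 and PEAR1-DBOX 3 left out, and NAC045 was at -0.041 with limma voom. The cause was not tested. The median of the 25924 nuclear genes, -0.09, was -0.27 without PEAR1-DBOX 5, -0.21 with median-of-ratios factors or DESeq2 and -0.085 with no filter. No paired analysis was possible because the 2 lines share only replicate number 3. Precision is limited by the number of libraries.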
